A study of Homo sapiens with 12 samples.

Results

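The genes described here are the numbered ZNF zinc finger genes of human chromosome 19, in C4-2 prostate cancer cells treated with a PBK inhibitor. The members were the protein-coding chromosome 19 genes (GRCh37 annotation) with a ZNF number symbol that had at least 10 reads in at least 6 of 12 libraries. ZNF554 was named in the rule, and the group was put together with the rise of ZNF554 already known. Of 246 such annotated genes, 236 had a row in the count tables and 206 passed the minimum, out of 14505 genes tested in all. The other 30 genes with a row stayed below the minimum, and 4 of these had no read in any library.

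C4-2 is a castration-resistant line derived from LNCaP, a prostate cancer line, and was grown in RPMI medium with serum. Cells received 1 µM of the PBK inhibitor HI-TOPK-032 (PBKi) for 6 h, or the vehicle dimethyl sulfoxide (DMSO), and RNA was sequenced from 6 libraries of each. PBK, or TOPK, is a mitotic serine/threonine kinase, and the series asked which transcripts depend on its catalytic activity. All libraries come from 1 cell line and 1 dose and time, and the sources used here do not say whether replicates were separate cultures, so p-values measure only the spread between these samples, which may be technical.

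Most proteins of this family carry an array of C2H2 zinc fingers that reads DNA, and many carry a KRAB domain in front of it. The KRAB domain recruits TRIM28 (KAP1), which in turn brings the histone methyltransferase SETDB1 and heterochromatin proteins, so that many targets, often transposable elements, are silenced. The genes arose by repeated tandem duplication and sit in clusters along chromosome 19, which means that neighbours share sequence and are not independent of each other.

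Reads assigned to genes ran from 9663203 to 28029908 per DMSO library and from 13122415 to 22817803 per PBKi library. Libraries stood apart in these measures. PBKi replicates 3 and 6 had 9.30% and 8.83% of uniquely aligned reads outside genes, against 5.74% to 6.96% in DMSO. DMSO replicate 5 was the shallowest, had 3 sequencing lanes instead of 4, and had the lowest level among DMSO libraries for 96 of the 206 ZNF genes (46.6%, against 24.8% of all genes). Luminal prostate markers were abundant, with a summed level of 5077 to 6056 CPM in DMSO and 2732 to 3671 in PBKi, and KLK3 led the list. CPM are read counts scaled to a common library size. TMM factors were applied to all CPM except these marker sums, which used library size only. The basal list (KRT5, KRT14, TP63) summed to at most 1.66 CPM and the leukocyte list to at most 0.394 CPM in any library, while the stromal list reached 22.7 CPM through COL1A1. Fewer cells of a type and less RNA per cell cannot be told apart in these bulk samples.

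ZNF554 (ENSG00000172006, GRCh37 chr19:2819866-2836733, plus strand) encodes a KRAB zinc finger protein best known from placenta and brain. It lies near the short-arm end of the chromosome in a small cluster with ZNF555, ZNF57 and ZNF77. The RefSeq promoters of these genes are shown first because ZNF554 rose far more than its neighbours. Each runs from 250 bases before the gene start to 50 after it (GRCh38.p14, gene strand, 5′ to 3′), and capitals mark CCAAT boxes and GGGCGG GC boxes on either strand (ATTGG and CCGCCC when read on the other strand). The windows lie at chr19:2819618-2819917 for ZNF554, chr19:2841225-2841524 for ZNF555, chr19:2900678-2900977 for ZNF57 (all plus strand) and chr19:2944922-2945221 for ZNF77 (minus strand).
ZNF554: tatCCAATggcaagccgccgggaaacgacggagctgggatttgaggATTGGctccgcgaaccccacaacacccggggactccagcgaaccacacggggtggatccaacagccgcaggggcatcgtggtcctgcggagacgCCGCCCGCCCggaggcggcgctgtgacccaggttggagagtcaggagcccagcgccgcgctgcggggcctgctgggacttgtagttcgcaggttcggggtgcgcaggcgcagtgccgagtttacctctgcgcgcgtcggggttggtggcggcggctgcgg
ZNF555: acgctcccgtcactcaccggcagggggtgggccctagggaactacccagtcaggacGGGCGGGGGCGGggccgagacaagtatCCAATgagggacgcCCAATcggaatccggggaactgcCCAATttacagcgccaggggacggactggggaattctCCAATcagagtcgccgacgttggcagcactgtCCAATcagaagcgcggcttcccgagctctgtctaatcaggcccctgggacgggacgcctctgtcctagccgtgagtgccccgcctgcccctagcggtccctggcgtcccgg
ZNF57: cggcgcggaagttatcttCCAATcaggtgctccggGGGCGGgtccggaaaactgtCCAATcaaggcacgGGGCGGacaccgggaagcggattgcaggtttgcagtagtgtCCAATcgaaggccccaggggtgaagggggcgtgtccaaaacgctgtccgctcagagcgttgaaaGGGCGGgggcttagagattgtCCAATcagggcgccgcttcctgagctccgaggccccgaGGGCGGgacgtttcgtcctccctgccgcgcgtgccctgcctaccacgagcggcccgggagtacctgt
ZNF77: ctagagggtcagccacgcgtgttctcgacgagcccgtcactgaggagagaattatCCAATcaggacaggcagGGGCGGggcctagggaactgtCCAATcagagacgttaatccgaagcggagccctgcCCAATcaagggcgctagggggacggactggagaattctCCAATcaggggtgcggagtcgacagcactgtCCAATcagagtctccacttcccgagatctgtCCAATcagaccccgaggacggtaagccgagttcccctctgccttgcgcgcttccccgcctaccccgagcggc
The ZNF554 window differed from those of its neighbours in its CCAAT boxes. It held 2, 1 on each strand and both in the first part of the window, whereas ZNF555 held 5, ZNF57 held 4 and ZNF77 held 6, all on the gene strand and spread over the window. Of all 27305 RefSeq promoters in the table, 35.7% held CCAAT at least once and 1.06% at least 4 times. The ZNF554 window also had more CG dinucleotides than its neighbours, 34 against 22 to 29, where the median promoter had 14. It held no TGACNNNGC (the core of the antioxidant response element, in 13.6% of all promoters), no CACGTG (an E-box, 7.43%) and no TGACGTCA (the cyclic AMP response element, 1.98%).

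ZNF554 had 3.45, 3.67 and 4.54 CPM as the lowest, median and highest level in DMSO, from 42 to 101 reads. In PBKi its lowest, median and highest levels were 22.4, 28.8 and 40.9 CPM, from 298 to 966 reads. Every PBKi library lay above every DMSO library, and PBKi replicate 3 was the highest. The log2 fold change was 2.94 (SE 0.15, n = 6 libraries each), given without a test because this rise chose the gene, and it was 2.82 without PBKi replicate 3. In replicates 1 to 3 it was 3.18 and in replicates 4 to 6 it was 2.68. By level per kilobase of exon, ZNF554 stood 175th of the 206 genes in DMSO and 28th in PBKi.

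The neighbours of ZNF554 were measured in the same libraries. ZNF555, 4702 bp downstream, was close to the detection limit at 0.447 ± 0.163 CPM in DMSO and 0.602 ± 0.268 in PBKi (SD, n = 6 each), with a log2 fold change of 0.41 (edgeR adjusted p = 0.306). ZNF57 went from 8.61 ± 1.03 to 9.67 ± 0.80 CPM (log2 fold change 0.16, edgeR adjusted p = 0.171), although 71.5% of its 40-base windows also occur in another annotated gene, mostly an antisense transcript. ZNF77 went from 7.32 ± 0.77 to 6.91 ± 0.47 CPM (log2 fold change -0.09, edgeR adjusted p = 0.413). None of these passed the test. The gene on the other side did. THOP1, which encodes the oligopeptidase thimet, ends 4061 bp before ZNF554 on the same strand, and it rose from 100.4 ± 17.5 to 139.5 ± 5.6 CPM (log2 fold change 0.48, SE 0.08, edgeR adjusted p = 0.000194).

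Across the family, changes were small. The quasi-likelihood test of edgeR was adjusted over all genes by the Benjamini-Hochberg method, and genes with an adjusted p under 0.05 were called. Of the 206 ZNF genes, 33 were higher in PBKi (16%), 11 were lower (5.34%) and 162 did not pass. Of all genes tested, 20.1% were higher and 21.5% were lower. In either direction 44 ZNF genes (21.4%) were called, beside 41.7% of all genes, and whether the shares differ was not tested. ZNF554 is counted among the 33. The median log2 fold change was 0.067, with quartiles of -0.08 and 0.18, against a median of -0.012 over all genes with quartiles of -0.19 and 0.19. A positive value was seen for 129 genes (62.6%) and a negative one for 77, where 48.1% of all genes tested were positive. Numbered ZNF genes on other chromosomes were positive in 68.9%, so this lean was not particular to the chromosome 19 members. ZNF554 was the only member to change at least 2-fold, against 3.85% of all genes tested.

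Much of the higher count rested on 1 library. Without PBKi replicate 3, 17 genes were higher and 11 lower, with a median of 0.063, where 17.8% of all genes were higher and 18.8% lower. That library was the highest PBKi sample in 15 of the 33 genes called higher (45.5%), and in 35.1% of all genes called higher. Without DMSO replicate 5, 32 were higher and 17 lower, where 23.0% of all genes were higher and 22.2% lower.

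**Figure D1:**
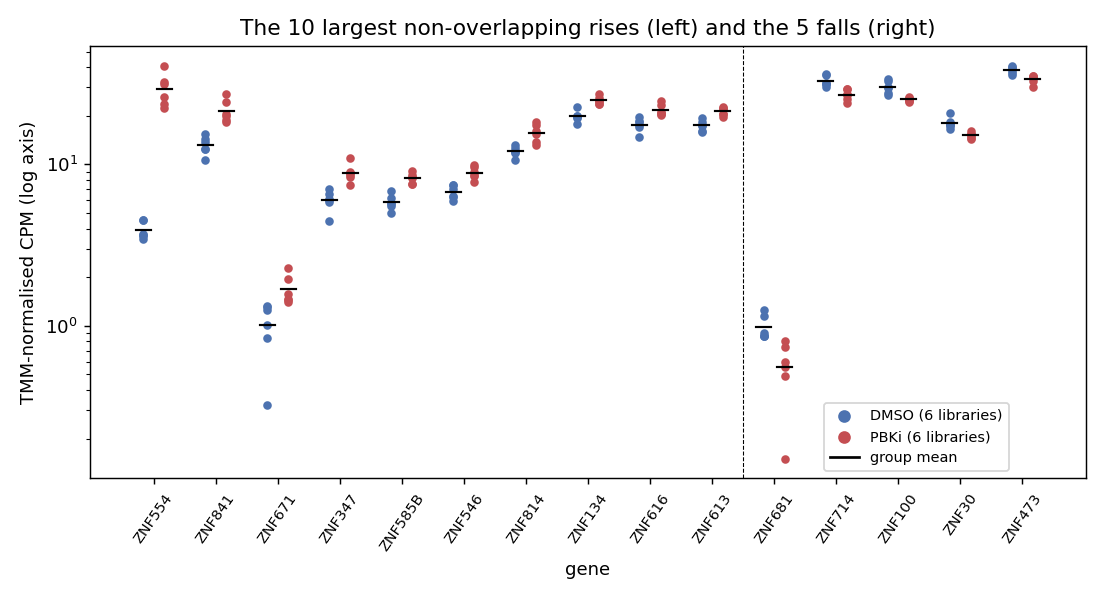
TMM-normalised CPM (log axis) in each of the 6 DMSO and 6 PBKi libraries, with group means as bars, for the 10 largest rises and the 5 falls among called ZNF genes whose groups did not overlap. ZNF554 moves from 3.45 to 4.54 CPM in DMSO to 22.4 to 40.9 in PBKi, and the other genes shift by much less.

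The levels of 13 members were higher in every PBKi library than in any DMSO library, and 5 were lower in every one, beside 10.5% and 9.68% of all genes. Of these, 12 and 5 also passed the test, beside 10.4% and 9.62% of all genes. The largest rise after ZNF554 in this set was ZNF841 (ENSG00000197608, GRCh37 chr19:52567718-52599018, minus strand), a KRAB zinc finger gene of unknown function. It had 10.6, 13.1 and 15.4 CPM as lowest, median and highest level in DMSO and 18.2, 20.2 and 27.2 CPM in PBKi. The groups were separate, and the log2 fold change was 0.71 (SE 0.11, edgeR adjusted p = 5.71e-05).

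ZNF347, in the same stretch of the long arm, had 4.47, 6.04 and 7.05 CPM as lowest, median and highest level in DMSO and 7.45, 8.68 and 11.0 in PBKi. Its log2 fold change was 0.57 (SE 0.11, edgeR adjusted p = 0.000583). ZNF671, reported in several cancers as silenced by promoter methylation, was scarce in C4-2. It had 0.325, 1.13 and 1.33 CPM as lowest, median and highest level in DMSO and 1.40, 1.52 and 2.29 in PBKi. Its log2 fold change was 0.68 (SE 0.22, edgeR adjusted p = 0.0197), and without PBKi replicate 3 it was 0.55 and missed the threshold (edgeR adjusted p = 0.0632).

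ZNF585B had 5.02, 5.70 and 6.80 CPM as lowest, median and highest level in DMSO and 7.53, 8.29 and 9.09 in PBKi, with a log2 fold change of 0.50 (SE 0.09, edgeR adjusted p = 0.000233). Its neighbouring copy ZNF585A measured 10.1 ± 1.1 CPM in DMSO and 10.7 ± 0.8 in PBKi, and its log2 fold change of 0.06 did not pass (edgeR adjusted p = 0.606). The pair share sequence, since 21.6% of the 40-base windows of ZNF585B are found elsewhere in the genome annotation, mainly in ZNF585A. Reads from such windows align to more than 1 place and would be left out of both counts, so each count covers only part of its gene. A similar limit holds for ZNF814, which rose by a log2 fold change of 0.38 (edgeR adjusted p = 0.00226), because 28.0% of its windows are shared and its exons overlap those of ZNF587 on the opposite strand. Whether counting used strand is not given in the sources used here, so reads of such overlapping genes cannot be told apart. In total, 52 members overlapped exons of another gene, 7 of them by over 20% of their exon length.

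The remaining rises of this set were smaller. ZNF546 rose by 0.39 on the log2 scale (edgeR adjusted p = 0.00213), ZNF134 by 0.33 (edgeR adjusted p = 0.000605), ZNF616 by 0.31 (edgeR adjusted p = 0.00285) and ZNF613 by 0.29 (edgeR adjusted p = 0.00205). ZNF134 was measured tightly, at 17.9 to 22.7 CPM in DMSO and 23.5 to 27.3 in PBKi. These are KRAB or C2H2 proteins with few described targets.

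The falls were fewer and, apart from ZNF681, also small. ZNF681 (ENSG00000196172, GRCh37 chr19:23921997-23941693, minus strand) had 0.863, 0.883 and 1.26 CPM as lowest, median and highest level in DMSO and 0.150, 0.573 and 0.805 in PBKi. Its log2 fold change was -0.81 (SE 0.25, edgeR adjusted p = 0.0157), which rests on 2 to 24 reads per library. ZNF714 went from a median of 31.6 CPM (30.0 to 36.5) to 27.1 (23.9 to 29.2), a log2 fold change of -0.28 (edgeR adjusted p = 0.00258). ZNF100 went from a median of 30.1 CPM (26.9 to 33.8) to 25.2 (24.4 to 26.3), a log2 fold change of -0.27 (edgeR adjusted p = 0.00242). All of these lie in the pericentromeric cluster described below, which is specific to primates in large part. Elsewhere, ZNF30 fell by 0.24 (edgeR adjusted p = 0.00844) and ZNF473 fell by 0.19 on the log2 scale (edgeR adjusted p = 0.0113). ZNF473, also called ZFP100, belongs to the machinery that processes the 3′ end of replication-dependent histone transcripts, and its level went from 38.5 ± 1.8 to 33.7 ± 1.9 CPM. Its call was lost with library-size scaling (edgeR adjusted p = 0.0512), with no low-count filter (edgeR adjusted p = 0.0589), with PBKi replicates 3 and 6 left out (edgeR adjusted p = 0.0624) and in each set of replicates taken alone.

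Members with a described function in genome defence had small differences. ZNF91, which binds SVA retrotransposons, went from 20.1 ± 3.3 to 24.1 ± 2.6 CPM (log2 fold change 0.26, edgeR adjusted p = 0.0393), with overlapping groups. Its call was lost when any of DMSO replicates 1 to 5 or PBKi replicate 2, 3 or 6 was left out (edgeR adjusted p = 0.05 to 0.0925). ZNF93, which binds an older class of L1 elements, had a log2 fold change of -0.15 and did not pass (edgeR adjusted p = 0.272). ZNF274, which marks the 3′ ends of ZNF genes themselves through SETDB1, measured 16.9 ± 0.7 CPM in DMSO and 18.6 ± 1.4 in PBKi, and its log2 fold change of 0.14 did not pass (edgeR adjusted p = 0.0993). These 3 were chosen for their known roles after values were seen.

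Levels spanned a wide range. Mean level per kilobase of exon ran from 0.0614 to 47.5 CPM per kilobase, with a median of 2.34 against 5.00 over all genes tested, and 55 of the 206 ZNF genes lay below 1. ZNF146 (OZF), a protein made almost wholly of zinc fingers with no KRAB domain, was the most abundant at 47.5 CPM per kilobase and made up 6.40% of the summed CPM of the family in DMSO. It had 191 to 232 CPM in DMSO and 173 to 203 in PBKi, so the groups overlapped, with a log2 fold change of -0.16 (edgeR adjusted p = 0.0263). That call was lost when DMSO replicate 1, 2, 4 or 6 or PBKi replicate 1 or 3 was left out (edgeR adjusted p = 0.056 to 0.0875). ZNF358 followed at 13.9 CPM per kilobase (log2 fold change -0.07, edgeR adjusted p = 0.704), then ZNF260 at 10.6 (0.08, edgeR adjusted p = 0.195) and ZNF317 at 10.3. ZNF317 rose without overlap, from 47.3 ± 4.4 to 56.5 ± 3.3 CPM (log2 fold change 0.26, edgeR adjusted p = 0.00327). Together the 206 genes summed to 3246 ± 114 CPM in DMSO (3054 to 3391) and 3383 ± 94 in PBKi (3272 to 3542).

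**Figure D2:**
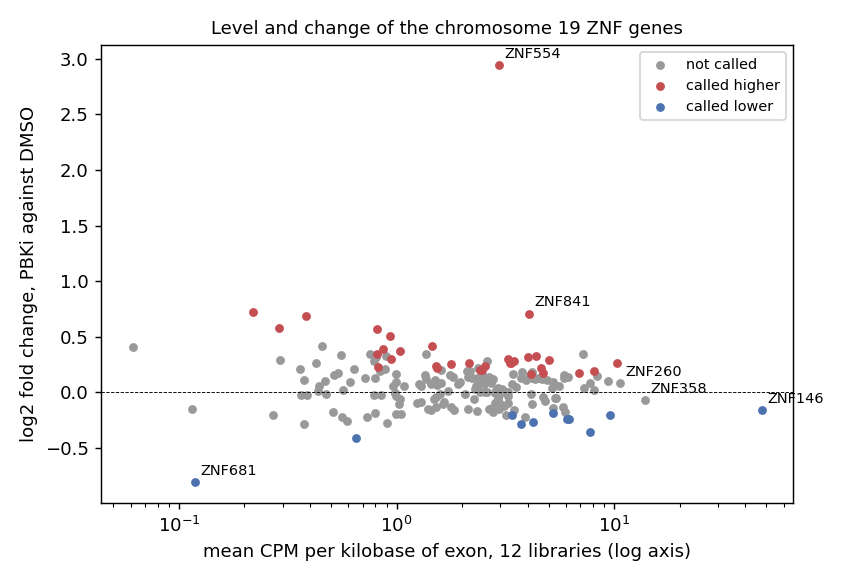
Log2 fold change of each of the 206 ZNF genes against its mean level in CPM per kilobase of exon over 12 libraries (log axis). ZNF146 is the most abundant at 47.5 and changed by -0.16, while ZNF554 stands alone at 2.94.

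At the threshold of the rule, the genes just inside were ZNF492, ZNF555 and ZNF114, whose sixth highest library had 10, 10 and 12 reads. Just outside were ZNF677, ZNF534 and ZNF208 with 9, 9 and 8 reads. A total of 198 members reached 10 reads in all 12 libraries. Of the 8 that did not, 4 reached it in all PBKi but not all DMSO libraries and none the other way round. Of these 8, 4 were called, where 41.7% of all genes were. ZNF114 reached 10 reads in 2 DMSO and 5 PBKi libraries, so it entered the set mainly through PBKi, where it was higher. It had a log2 fold change of 0.73 with overlapping groups. Its call (edgeR adjusted p = 0.0265) is counted among the 33 but, given how it entered, is no support for a rise. Its call was lost without DMSO replicate 4 or without PBKi replicate 1, 3 or 4 (edgeR adjusted p = 0.052 to 0.0579).

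The genes fell into 15 position clusters with at least 1 member, defined by gaps of more than 1 Mb between annotated ZNF genes and numbered from the short-arm end (GRCh37). The most distal clusters of the long arm, cluster 15 (52.1 to 54.1 Mb, 34 members) and cluster 16 (56.0 to 59.0 Mb, 52 members), held 22 of the 33 genes called higher and 1 of the 11 called lower. That is 25.6% and 1.16% of their 86 members, beside 20.1% and 21.5% of all genes tested. The other 120 members held 11 (9.17%) and 10 (8.33%). These clusters were singled out after their values were seen, and the difference was not tested because neighbours are not independent.

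**Figure D3:**
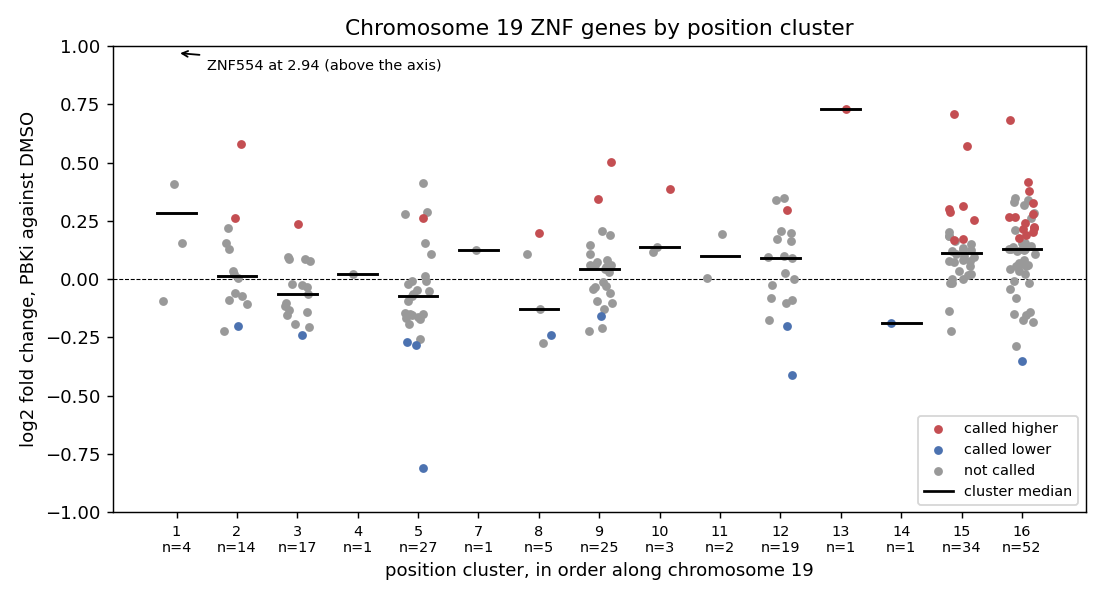
Log2 fold change (PBKi against DMSO) of each ZNF gene by position cluster in order along chromosome 19, with cluster medians as bars and the number of members under each. Cluster medians are 0.11 in cluster 15 and 0.13 in cluster 16 and -0.07 in cluster 5, and ZNF554 (cluster 1, 2.94) lies above the axis.

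In cluster 16, 41 of 52 genes had a positive log2 fold change, where 48.1% of all genes did, with a median of 0.13. Of the 52, 14 were called higher (26.9%, beside 20.1% of all genes). ZNF671, ZNF419, ZNF814, ZNF134, ZNF772, ZNF543, ZNF264, ZNF417, ZNF470, ZNF549, ZNF776, ZNF548, ZNF544 and ZNF587 passed as higher and ZNF581 as lower (-0.35, edgeR adjusted p = 0.00548). Taking the median over the cluster in each library, relative to each gene's DMSO mean, DMSO libraries ran from -0.05 to 0.03 and PBKi libraries from 0.09 to 0.15 on the log2 scale, without overlap. The same measure over all genes ran from -0.01 to 0.02 in DMSO and from -0.01 to -0.0009 in PBKi. The 18 other protein-coding genes tested within the span of cluster 16 had a median of -0.03, with 1 higher and 3 lower. Without PBKi replicate 3, 6 of the 52 ZNF genes were called higher (11.5%, beside 17.8% of all genes) and 2 lower, and 39 of the 41 positive genes stayed positive, with a median of 0.13.

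Cluster 15 had 29 of 34 positive values, where 48.1% of all genes were positive, and a median of 0.11. It had 8 higher (23.5% of its members, beside 20.1% of all genes: ZNF841, ZNF347, ZNF616, ZNF836, ZNF613, ZNF611, ZNF28 and ZNF320) and 0 lower, beside 21.5%. The test of edgeR gave 0 lower at an unadjusted p under 0.05 as well, a share that was not counted over all genes. DESeq2 and limma-voom, run on the same libraries, each gave 8 higher and 0 lower. Over all genes, DESeq2 gave 20.4% higher and 21.8% lower, and limma-voom gave 20.8% and 21.7%. Its library medians ran from -0.14 to 0.09 in DMSO and from 0.03 to 0.23 in PBKi and overlapped, with DMSO replicate 5 the lowest. Without PBKi replicate 3, 6 of the 34 were higher (17.6%, beside 17.8% of all genes) and 2 were lower at an unadjusted p under 0.05. Without DMSO replicate 5, 7 were higher (20.6%, beside 23.0% of all genes) and 1 was lower at an unadjusted p under 0.05. Within it, the span of ZNF841 overlapped that of ZNF432 on the same strand, so reads from any exons they share cannot be told apart. ZNF432 had a log2 fold change of 0.02 (edgeR adjusted p = 0.913), and the gene after ZNF841, ZNF616, rose by 0.31.

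Cluster 5, on the short arm next to the centromere (19.8 to 24.3 Mb, 27 members), had mostly negative values. It had 7 positive and 20 negative values, where 48.1% of all genes were positive, and a median of -0.07. The calls were 1 gene higher (ZNF91, 3.7%) and 3 lower (ZNF681, ZNF714 and ZNF100, 11.1%), beside 20.1% and 21.5% of all genes. Its library medians overlapped widely, from -0.16 to 0.10 in DMSO and from -0.14 to 0.07 in PBKi. Without DMSO replicate 5, 7 genes were lower (25.9%, beside 22.2% of all genes). Without PBKi replicate 3, 5 were lower (18.5%, beside 18.8% of all genes) and ZNF91 was not called. Cluster 3 (11.6 to 12.8 Mb, 17 members) had 5 positive and 12 negative values. It had 1 call each way, ZNF490 higher and ZNF627 lower (5.88% each). Cluster 8 (35.2 to 35.5 Mb), with 5 members, had a median of -0.13, with ZNF181 higher and ZNF30 lower. Clusters 2, 9 and 12 had medians of 0.01, 0.04 and 0.09.

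**Figure D4:**
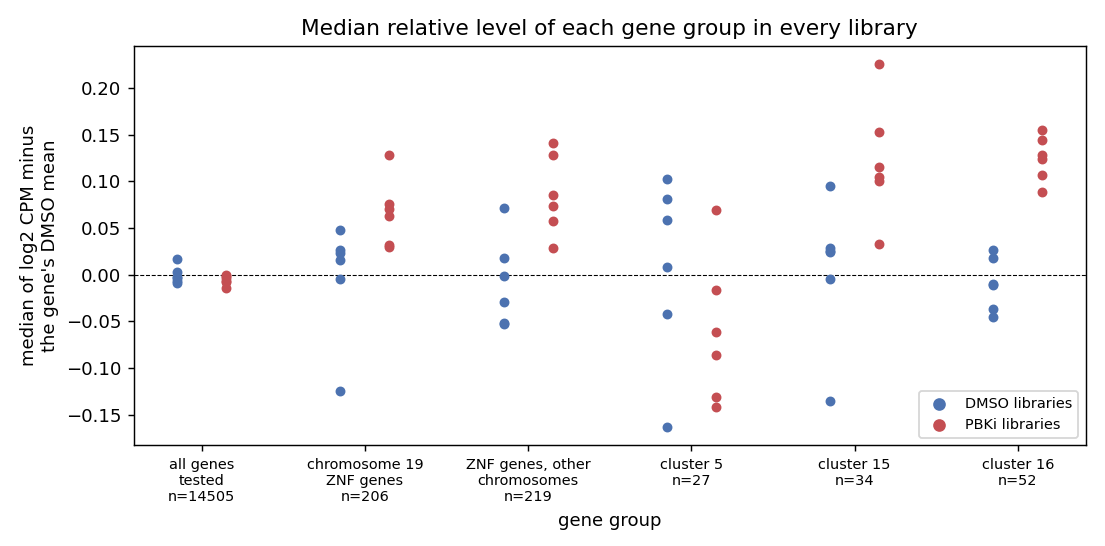
Median over each gene group of log2 CPM minus the gene's DMSO mean, one point per library. In cluster 16 the DMSO libraries (-0.05 to 0.03) and the PBKi libraries (0.09 to 0.15) are separate, whereas those of cluster 5, cluster 15 and the whole family overlap.

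Promoter composition also differed between clusters, as read from the 184 members with a RefSeq promoter. All 24 promoters of cluster 5 held at least 1 CCAAT box, with a median of 10 CG dinucleotides. In cluster 16, 66.0% of 47 held the box, with a median of 23, and in cluster 15, 31.0% of 29 did, with a median of 25. Over all members, 53.8% held CCAAT and 66.8% held GGGCGG, against 35.7% and 44.6% of all promoters. The shares among the 30 higher members with a promoter (60.0% and 70.0%) were near those of the family, and so was the antioxidant element core, at 16.7% against 15.2% of members and 13.6% of all promoters.

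Numbered ZNF genes elsewhere and other genes of the chromosome were set beside the family, with no test of the differences. The 219 numbered ZNF genes on other chromosomes, by the same minimum, had a median log2 fold change of 0.093, with 47 higher (21.5%) and 29 lower (13.2%). The 700 other protein-coding genes of chromosome 19 had a median of -0.069, with 89 higher (12.7%) and 156 lower (22.3%). Library medians of the ZNF genes elsewhere ran from -0.05 to 0.07 in DMSO and from 0.03 to 0.14 in PBKi. Among genes at 10 CPM or more, 23 of 114 ZNF genes were higher and 9 lower (20.2% and 7.89%), against 19% and 26.5% of all genes at that level. Under 10 CPM, 10 of 92 ZNF genes were higher and 2 lower (10.9% and 2.17%), against 22.4% and 11.7% of all genes at that level.

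Both sets of replicates were compared separately because they share no library. Replicates 1 to 3 alone gave 33 members higher and 10 lower, where 23.1% of all genes were higher and 22% lower (45.1% either way). Replicates 4 to 6 alone gave 5 higher and 1 lower, where 8.78% and 8.32% of all genes were (17.1% either way). Direction was shared by 153 of the 206 members (74.3%) and by 82.1% of all genes tested. The 44 called members all kept their direction, which their choice on the pooled libraries favours. The genes called in both sets numbered 6 (2.91%), beside 16.2% of all genes tested.

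**Figure D5:**
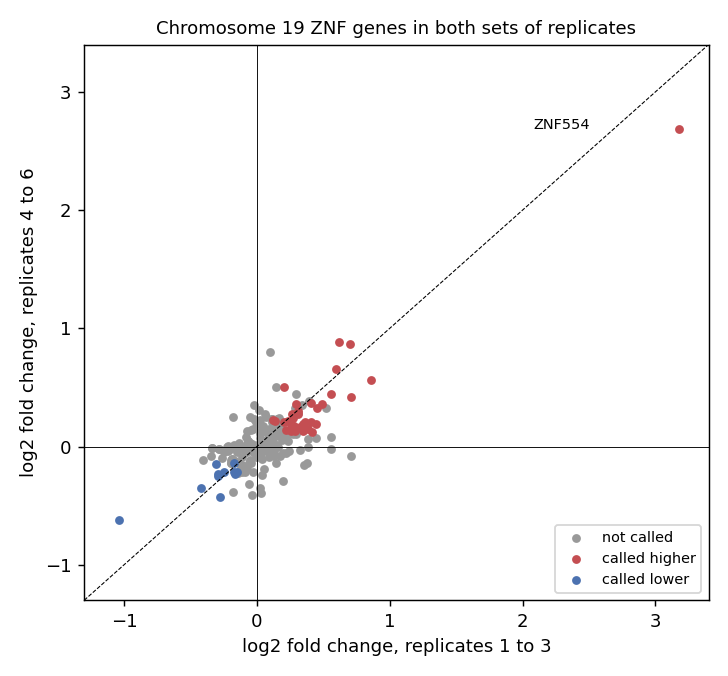
Log2 fold change of each ZNF gene in replicates 1 to 3 (x axis) and in replicates 4 to 6 (y axis), with the dashed line marking equal values. ZNF554 lies at 3.18 and 2.68, and most uncalled genes gather around 0.

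The partners of these proteins were described from a list of 31 KRAB corepressor and heterochromatin genes, of which 29 were tested. Of these, 9 fell (31.0%) and 1 rose, beside 21.5% and 20.1% of all genes. All 29 had a mean above 10 CPM, and among all genes at 10 CPM or more, 26.5% fell and 19% rose. Whether the list differs from genes at that level was not tested. TRIM28, the common KRAB corepressor, went from 465 ± 72 to 438 ± 29 CPM (log2 fold change -0.09, SE 0.08, edgeR adjusted p = 0.418). SETDB1 went from 49.3 ± 2.1 to 45.9 ± 2.3 CPM (log2 fold change -0.10, SE 0.05, edgeR adjusted p = 0.127). Neither passed the test.

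The heterochromatin proteins divided. CBX3 (HP1γ) fell from 583 ± 80 to 443 ± 27 CPM (log2 fold change -0.40, edgeR adjusted p = 0.000552) and CBX1 (HP1β) by 0.30 on the log2 scale (edgeR adjusted p = 0.00109), while CBX5 (HP1α) had a log2 fold change of 0.11 and did not pass (edgeR adjusted p = 0.363). The deacetylases HDAC1 and HDAC2 fell by 0.34 and 0.23, and SUMO2, a modifier that TRIM28 uses, fell by 0.28. In these 5 falling genes of the 29 the groups did not overlap, as in 9.68% of all genes tested with PBKi lower. DAXX, a histone chaperone, was the 1 gene that rose, with a log2 fold change of 0.12 (edgeR adjusted p = 0.0411). Without PBKi replicate 3 the list again had 9 lower, and DAXX was not called. With PBKi replicates 3 and 6 both left out it had 5 lower (17.2%, beside 15.3% of all genes), replicates 4 to 6 alone gave 5 lower, and replicates 1 to 3 alone gave 9 lower and 6 higher. DAXX also lost its call without DMSO replicate 1 or 2, and without PBKi replicate 1, 2, 5 or 6.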

How the data were processed

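Libraries were made with a TruSeq RNA kit and sequenced as single-end reads of 40 bases. Per the methods and the submitters' processing notes, the authors aligned reads to GRCh37 with TopHat2 2.0.4, counted them per Ensembl gene with HTSeq 0.5.3p9 and tested them with DESeq 1.10.1. The deposited values are raw read counts per gene and lane (47 lane files), which were summed to 12 libraries. HTSeq leaves out reads that align to several places, which lowers the counts of genes with near-identical copies. Such alignments were 26.7% to 29.3% of all, and the 5 rows that name no gene were left out. The labels mention sorted cells and the methods do not.

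Members and lists were chosen with earlier results of these data known. The 14505 genes that reached 10 counts in 6 or more libraries were fitted with edgeR 4.0.16 (quasi-likelihood test, TMM factors, no covariate, R 4.3.3), and the SE is the log2 fold change divided by the square root of F. On simulated counts for 14357 genes, 71% of changes of 0.5 and 96% of changes of 1 on the log2 scale were recovered in a PBKi against DMSO comparison of this size, and 3.49% of calls were unchanged genes. Levels other than the marker sums are TMM-scaled CPM, with a prior count of 2 for log2 values. Symbols and exons came from a GENCODE annotation on GRCh37 (47098 of 54127 rows matched) and promoters from RefSeq. DESeq2 1.42.0, limma-voom 3.58.1, other scalings, filters, thresholds and sample sets were tried as alternatives.

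Genes named were ZNF554, up to 10 largest rises and falls among members called with no overlap between groups, the 3 highest per kilobase, the 3 on each side of the minimum, TRIM28, SETDB1 and members of position clusters. ZNF317, THOP1, ZNF585A and the remaining corepressors were added after their values were seen. Protein sequences were not used here.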

Additional observations from a re-analysis of the deposited data

Results flagged for a closer look

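Of 42 sets of 6 library values examined for the named genes, 1 had a sample far from the others, and chance alone marks about 5% of such sets. It was ZNF358 in DMSO, where replicate 5 stood at 46.09 CPM against 31.16 in the nearest library and 22.76 in the lowest, a gap of 0.64 of the range, past the limit for 6 values. DMSO replicate 5 had the lowest read total.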

How the results depend on the processing

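The counts of 33 higher and 11 lower genes moved by more than 1.5 times under some settings. Scaling by library size only gave 5 lower and a median log2 fold change of 0.114, while it moved the median of all genes to 0.035 from -0.012. No low-count filter gave 7 lower. Replicates 4 to 6 alone gave 5 higher and 1 lower, where 8.78% and 8.32% of all genes were. Leaving out PBKi replicates 3 and 6, chosen after seeing the data, gave 15 higher, where 15.1% of all genes were. An adjusted p under 0.01 gave 15 higher and 4 lower, and requiring a change of 0.5 or more on the log2 scale gave 7 higher and 1 lower. The cause of these moves was not tested. Shares of all genes were not counted at these thresholds, without a filter, under the other scalings or with the replicate block. For those settings, a result of the family cannot be told apart from a general change in calls. Leaving out 1 library at a time gave 17 (without PBKi replicate 3) to 38 genes higher, 6 (without DMSO replicate 2) to 17 (without DMSO replicate 5) lower, with 7 lower without DMSO replicate 1, and a median of 0.063 to 0.085. ZNF358 changed sign, from a log2 fold change of -0.073 to 0.050 in replicates 1 to 3 alone and to 0.080 without DMSO replicate 5, and leaving out 1 library at a time gave -0.137 to 0.080.

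Library-size scaling raised the higher genes to 48 of 53 calls, against 33 of 44, and upper quartile scaling gave 37 higher and 8 lower. ZNF841, ZNF585B and ZNF134 kept their call and direction in every fit. Of 537 values of named genes 496 kept direction and side of the threshold, 39 lost the call and 2 reversed. Positive genes numbered 6 to 11 of 27 in cluster 5, 27 to 32 of 34 in cluster 15 and 38 to 44 of 52 in cluster 16.

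The main fit did not treat replicate numbers as pairs, and whether they mark pairs was not tested. After subtracting group means, same-numbered DMSO and PBKi libraries correlated by 0.089 to 0.30, and 5 of 6 pairs were over 0.1. Among DMSO libraries, 4 of 6 matched best with the PBKi library of their own number. With the replicate block, 43 genes were higher and 14 lower (median 0.074), including all 44, and 4 of 6 libraries matched best with their own number.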
